A study of Mus musculus with 6 samples.

Results

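miR-103-3p and miR-107-3p (mmu-miR-103-3p and mmu-miR-107-3p in the array design) are a pair of near-identical mature microRNAs (miRNAs), the guide strands of the miR-103 and miR-107 hairpins. Both were found by their design name among the 1247 mouse miRNAs of the array, so that the 2 members are followed here out of 1247. Total RNA came from whole kidney of male C57BL/6 mice, a standard inbred laboratory strain, with 3 preparations from 20-month-old mice (aged) and 3 from 2-month-old mice (young). The groups differed in age alone as far as the labels say, with no treatment or genetic change named for either. One array of the 1-colour Agilent kind was used for each preparation. The preparations are described as independent but are not linked to single animals, and the spread that p-values measure may therefore be technical in part.

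miRNAs are short RNAs that pair with messenger RNAs, mainly through bases 2 to 8 (the seed), and lower their translation and stability. The hairpins of miR-103 and miR-107 lie within the genes of pantothenate kinases, the enzymes that start coenzyme A synthesis, and are expressed in most tissues. In mouse liver and fat the pair is known to lower insulin sensitivity, with caveolin-1 as a target, and in human cells it is known to repress Dicer, the enzyme that cuts miRNA precursors. miR-103 is also in common use as a reference miRNA against which others are normalised.

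The mature sequences of the pair differ at a single base. They are given 5′ to 3′ from RefSeq on GRCm38.p6, with the seed in capitals.
miR-103-3p: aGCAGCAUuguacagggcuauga
miR-107-3p: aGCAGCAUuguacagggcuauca
They share 22 of 23 bases, and the single substitution from miR-103-3p to miR-107-3p, counted from 1 at the 5′ end, was G22C. Of 1679 mature mouse names in the RefSeq table, 2 carried this seed, miR-103-3p and miR-107-3p themselves (0.119%), and both are on the array. The files give no probe sequences, and how much signal each probe takes from the other miRNA was not tested.

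The same mature miR-103-3p is cut from a pair of hairpins and miR-107-3p from 1 hairpin. The hairpins are printed with the mature 3p arm in capitals, since a signal for miR-103-3p cannot be assigned to either of its loci.
Mir103-1: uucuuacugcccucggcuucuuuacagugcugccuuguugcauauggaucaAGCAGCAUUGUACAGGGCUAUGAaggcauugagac
Mir103-2: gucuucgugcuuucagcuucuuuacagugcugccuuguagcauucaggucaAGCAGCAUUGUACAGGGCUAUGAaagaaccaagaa
Mir107: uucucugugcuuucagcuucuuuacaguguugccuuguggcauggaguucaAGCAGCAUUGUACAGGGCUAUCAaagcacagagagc
On GRCm38.p6 Mir103-1 is at chr11:35782396-35782481 on the plus strand, within the span of Pank3. Mir103-2 is at chr2:131288052-131288137 on the plus strand, within Pank2, and Mir107 at chr19:34820687-34820773 on the minus strand, within Pank1. The build of the array design, per the file headers, is mm9, and no coordinate of the design was used. The table of genes gives spans without exons. The messenger RNAs of the host genes were not measured on these arrays.

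As a check of the tissue, 10 of 11 miRNAs listed for kidney epithelium were well above background on every array, miR-192-5p among them, and miR-215-5p was not on any. Their summed signal was 26.6 to 30.1 in aged and 26.9 to 30.5 in young kidney, in units of the array's scale. Of 8 miRNAs listed for other organs, 1 or 2 were detected on each aged array and up to 1 on each young array, with summed signals of 0.134 to 0.151 in aged and 0.0753 to 0.104 in young kidney. The brain miRNA miR-124-3p of this list was detected on 3 of 3 aged and 0 of 3 young arrays. With each young array set to its dimmest detected probe as a bound, aged signals exceeded the young ones at least 2.49-fold. The limma fit instead held all 3 young arrays at the common floor of -5.22 log2, with no measured spread (limma adjusted p = 8.63e-05). miR-124-3p entered that test through the aged group alone, where it was higher, so its call supports nothing about age. The liver miRNA miR-122-5p was not detected on any array. The summed signal of 6 miRNAs of blood cells was 7.01 to 7.99 in aged and 8.87 to 9.87 in young kidney, and miR-451a of red blood cells made up 84.8 to 87.5% of that sum in aged and 88.2 to 89.8% in young kidney. The members of this list did not go one way. The red cell miRNAs miR-451a and miR-144-3p stood at -0.34 and -0.73 (aged minus young, log2; limma adjusted p = 0.0528 and 0.124), whereas the white cell miRNAs miR-223-3p, miR-142-3p and miR-142-5p stood at 0.55, 0.46 and 0.38 (limma adjusted p = 0.051, 0.14 and 0.186). None of these 5 passed the threshold of 0.05 in the fit reported here, but some did under other processing. miR-223-3p passed in several, among them quantile normalization and the authors' processed values (limma adjusted p = 0.0211 and 0.0329). Others were the 75th percentile over all probes and the median over detected probes (limma adjusted p = 0.025 and 0.013). Among those where miR-223-3p did not pass were no scaling, slide row as a block, normexp background correction and no detection filter (0.199, 0.144, 0.232 and 0.397). miR-451a passed under quantile normalization (limma adjusted p = 0.0284). Its log2 difference turned to 0.070 when all probes entered the 75th percentile (limma adjusted p = 0.877). miR-150-5p, detected on 2 aged and 2 young arrays, was not tested. The part of blood content in the results below was not tested. Arrays had 177 to 206 detected miRNAs in aged and 193 to 209 in young kidney. Array 1 of the aged group lay in the first row of the slide with the young arrays, and aged arrays 2 and 3 lay in the second row. Over the tested miRNAs, aged array 1 correlated with the young arrays at 0.991 to 0.993 (Pearson). With aged arrays 2 and 3 it correlated at 0.983 and 0.972, and the young arrays correlated with each other at 0.998. The aged group was thus less uniform than the young group, and the cause was not tested.

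Neither miR-103-3p nor miR-107-3p differed between aged and young kidney by more than the spread between arrays. Both were bright in every preparation, and the aged and young values overlapped. On the scale used here, log2 of the signal in units of each array's 75th percentile over probes detected throughout, aged kidney exceeded young kidney by 0.055 for mmu-miR-103-3p and by 0.071 for mmu-miR-107-3p. In RNA of a whole organ, fewer cells with a miRNA and less of it per cell cannot be told apart.

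miR-103-3p had scaled log2 signals of 0.94, 1.07 and 1.22 in aged kidney, against 0.99, 0.93 and 1.14 in young kidney. The highest value was aged array 3 and the lowest young array 2, with aged array 1 next to it. The mean was 1.08 ± 0.14 in aged and 1.02 ± 0.11 in young kidney (SD, n = 3 each). The difference was 0.055 ± 0.104 (log2 ± SE), a ratio of 1.04 with a 95% interval of 0.873 to 1.24 (limma adjusted p = 0.791).

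miR-107-3p had scaled log2 signals of 1.98, 2.06 and 2.15 in aged kidney, against 1.91, 1.95 and 2.11 in young kidney. Aged array 3 was again the highest, young array 3 lay above both other aged arrays, and young array 1 was the lowest. The mean was 2.06 ± 0.09 in aged and 1.99 ± 0.11 in young kidney (SD, n = 3 each). The difference was 0.071 ± 0.090, a ratio of 1.05 with a 95% interval of 0.904 to 1.22 (limma adjusted p = 0.641). Neither interval, each of which includes a ratio of 1, shows that the level stayed the same.

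**Figure D1:**
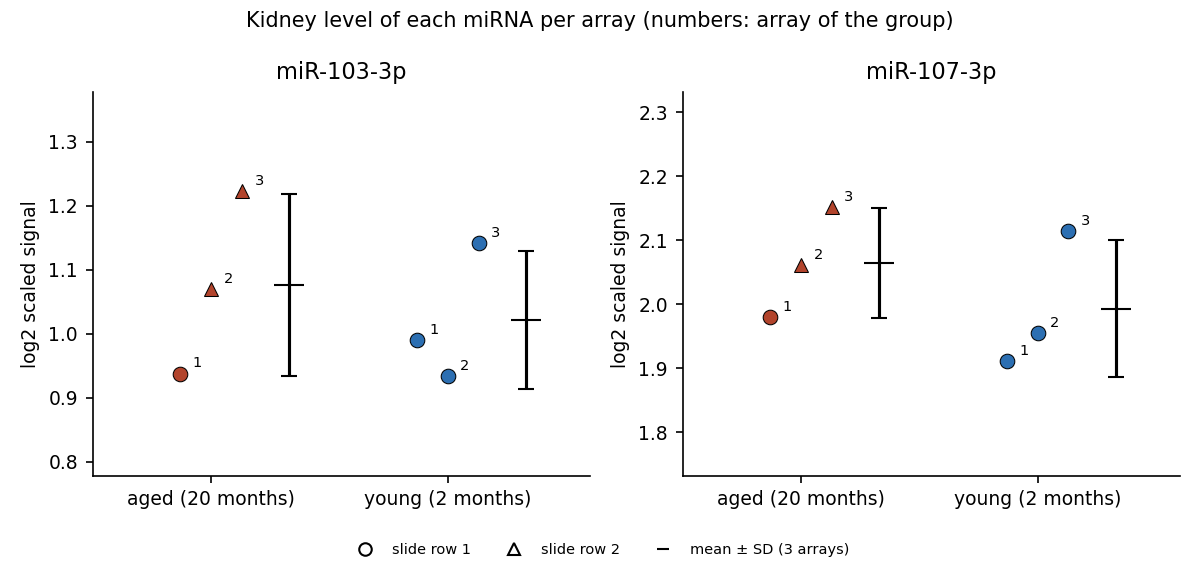
Scaled log2 signal of miR-103-3p (left) and miR-107-3p (right) on each array, with aged arrays left of young arrays, the slide row as the marker shape, and the mean ± SD of 3 arrays as a bar. For both miRNAs the aged and young points overlap, with aged array 3 highest.

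Of the 193 miRNAs tested, 15 passed the adjusted threshold of 0.05 (7.77%), and 0 of the 2 members did. An unadjusted limma p under 0.05 was reached by 49 miRNAs (25.4%) and again by 0 of the 2, whose unadjusted values were 0.615 for miR-103-3p and 0.455 for miR-107-3p. All aged arrays lay above all young arrays for 20 miRNAs (10.4%) and below them for 39 (20.2%), and neither member was among these. Differences above 0 were found for 65 miRNAs (33.7%), and the median over all 193 was -0.083. Among them 49 miRNAs had a larger difference than miR-103-3p and 45 a larger one than miR-107-3p. In absolute size 40 miRNAs differed by less than miR-103-3p and 48 by less than miR-107-3p. Exact two-sided permutation tests on the members alone gave p = 0.6 for miR-103-3p and p = 0.4 for miR-107-3p, where 3 arrays against 3 cannot go below 0.1.

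**Figure D2:**
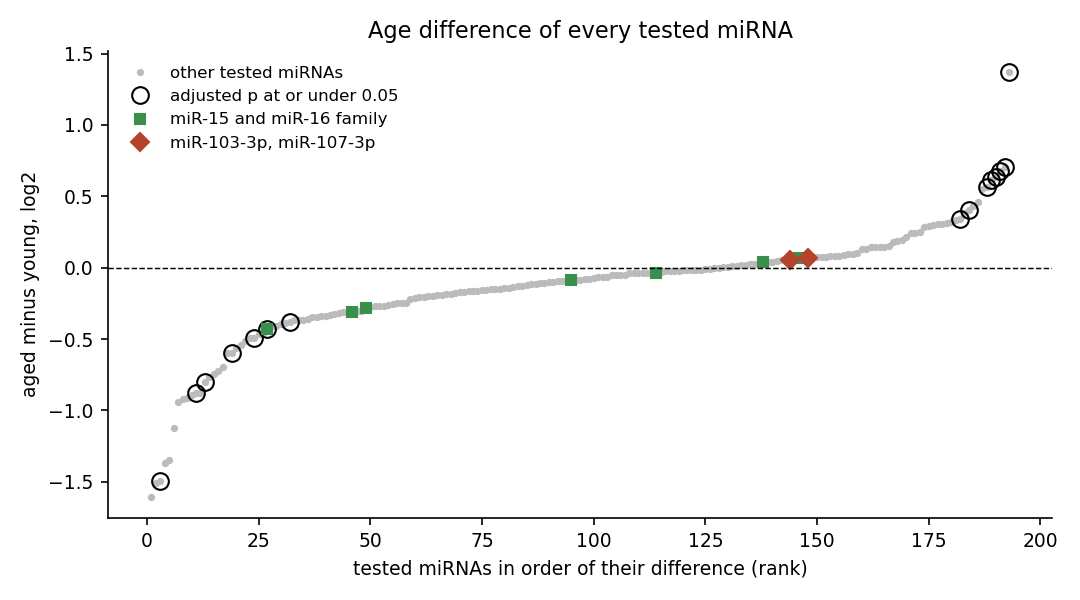
Age difference (aged minus young, log2) of each of the 193 tested miRNAs in rank order, with those past the adjusted threshold circled, the miR-15 and miR-16 family as squares and miR-103-3p and miR-107-3p as diamonds. The 2 diamonds lie at 0.055 and 0.071, on the flat stretch of the curve above 0 and uncircled.

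Each member is read by 2 probes, each printed as 20 spots on an array. Of 240 spots of miR-103-3p over the 6 arrays 226 were kept and 14 were left out as outliers, and of 240 spots of miR-107-3p 228 were kept. All kept spots of both were well above background, at 629 to 3020 intensity units for miR-103-3p and 1438 to 6027 for miR-107-3p. Within a probe the spots of an array varied with a coefficient of 3.02 to 8.63% for miR-103-3p and 3.44 to 8.02% for miR-107-3p. The standard error of a probe's mean over its spots was thus 0.011 to 0.029 on the log2 scale. Between arrays of a group the same probes had an SD of 0.085 to 0.14 in aged and 0.059 to 0.13 in young kidney. All of these lay above the largest spot error of 0.029.

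The probes of each miRNA gave like differences. For miR-103-3p, probe A_54_P1341 averaged 0.46 ± 0.14 in aged and 0.41 ± 0.13 in young kidney on the log2 scale (SD, n = 3 each), a difference of 0.054 with a 95% interval of -0.20 to 0.31. Its other probe, A_54_P1342, averaged -0.45 ± 0.14 in aged and -0.51 ± 0.06 in young kidney, a difference of 0.057 (-0.17 to 0.28). For miR-107-3p, probe A_54_P1420 averaged 1.41 ± 0.09 in aged and 1.33 ± 0.10 in young kidney, a difference of 0.081 (-0.13 to 0.29). Its other probe, A_54_P1421, averaged 0.61 ± 0.09 in aged and 0.56 ± 0.12 in young kidney, a difference of 0.054 (-0.17 to 0.27). In a limma fit over the 315 probes detected on all arrays, none of these 4 probes passed the threshold (adjusted p of 0.612 to 0.783). With both miRNAs added up, as one seed, the difference was 0.066, with a mean of 2.65 ± 0.11 in aged and 2.59 ± 0.10 in young kidney (SD, n = 3 each; exact permutation p = 0.5).

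**Figure D3:**
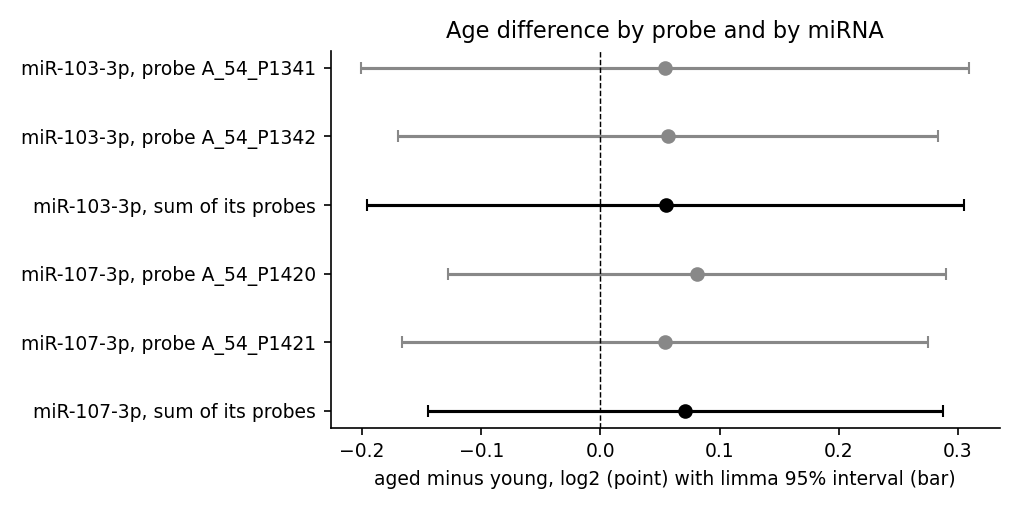
Age difference (aged minus young, log2) of each of the 4 probes in grey and of each miRNA as the sum of its probes in black, with limma's 95% intervals as bars. All 6 points lie between 0.054 and 0.081, and every interval includes 0.

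The signal of miR-103-3p relative to miR-107-3p was followed within each array, where the scaling between arrays cancels. The log2 ratio was -1.04, -0.99 and -0.93 in aged kidney, against -0.92, -1.02 and -0.97 in young kidney. The highest and the second highest were young array 1 and aged array 3, and the lowest was aged array 1. The means were -0.99 ± 0.06 in aged and -0.97 ± 0.05 in young kidney (SD, n = 3 each), a difference of -0.016 (exact two-sided permutation p = 0.7). Taken probe by probe, the 4 pairings of a miR-103-3p probe with a miR-107-3p probe differed between ages by -0.027 to 0.0024. Since probes differ in how strongly they bind, the ratio of signals is not a ratio of molecules. An unequal change of the 2 miRNAs was not detected. The sign of the ratio's difference turned with 1 array left out, to 0.0090 without young array 1 and to 0.011 without aged array 1.

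**Figure D4:**
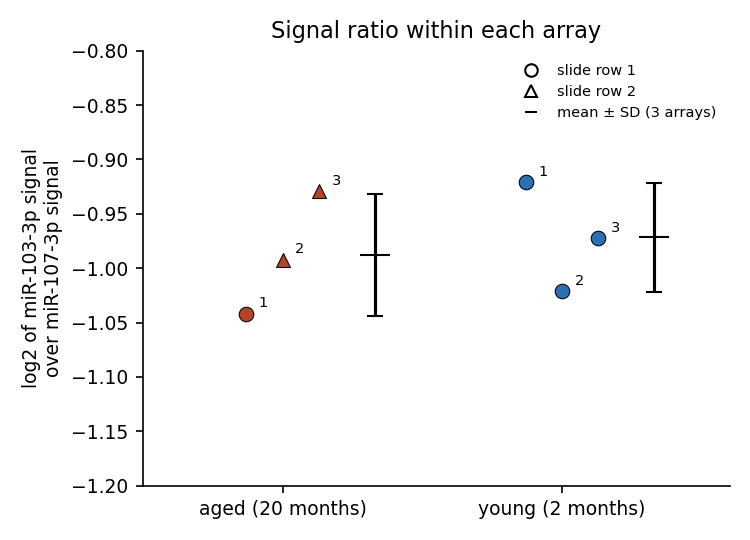
Log2 of the miR-103-3p signal over the miR-107-3p signal on each array, aged left of young, with the slide row as the marker shape and the mean ± SD of 3 arrays as a bar. Aged arrays span -1.04 to -0.93 and young arrays -1.02 to -0.92, so the groups overlap almost wholly.

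The small differences of miR-103-3p and miR-107-3p varied with the handling of slide row and with the scaling. Relative to the young mean, aged array 1, placed in the same row as the young arrays, stood at -0.084 for miR-103-3p and -0.014 for miR-107-3p. Aged arrays 2 and 3, in the other row, stood at 0.048 and 0.20 for miR-103-3p and at 0.068 and 0.16 for miR-107-3p. With slide row as a block the differences were -0.084 and -0.014 (limma adjusted p = 0.874 and 0.965), a turned direction, and within the first row alone they were -0.11 and -0.043 (limma adjusted p = 0.595 and 0.851). In both of these the aged value rests on a single array, and row and age can be told apart only through that array. When all probes entered the 75th percentile the differences were 0.47 and 0.48, without scaling 0.26 and 0.27, with the median over detected probes 0.19 and 0.21, and in the authors' processed values 0.17 and 0.19, in no case past the threshold. Without aged array 1 they were 0.13 and 0.12, without young array 3 0.11 and 0.13, without young array 1 0.039 and 0.030, and without young array 2 0.0091 and 0.050. Without aged array 2 they were 0.058 and 0.073, and without aged array 3 0.040 and 0.085.

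Relative to the other miRNAs the pair changed less with the scaling. The difference of miR-103-3p lay 0.14 above the median of all tested miRNAs, and that of miR-107-3p 0.15 above it. These distances were the same with the 75th percentile over all probes (where the median itself was 0.33), without scaling (0.12) and with the median over detected probes (0.056), since each of these shifts all miRNAs of an array alike. They were 0.079 and 0.095 under quantile normalization, and -0.024 and 0.047 with slide row as a block.

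**Figure D5:**
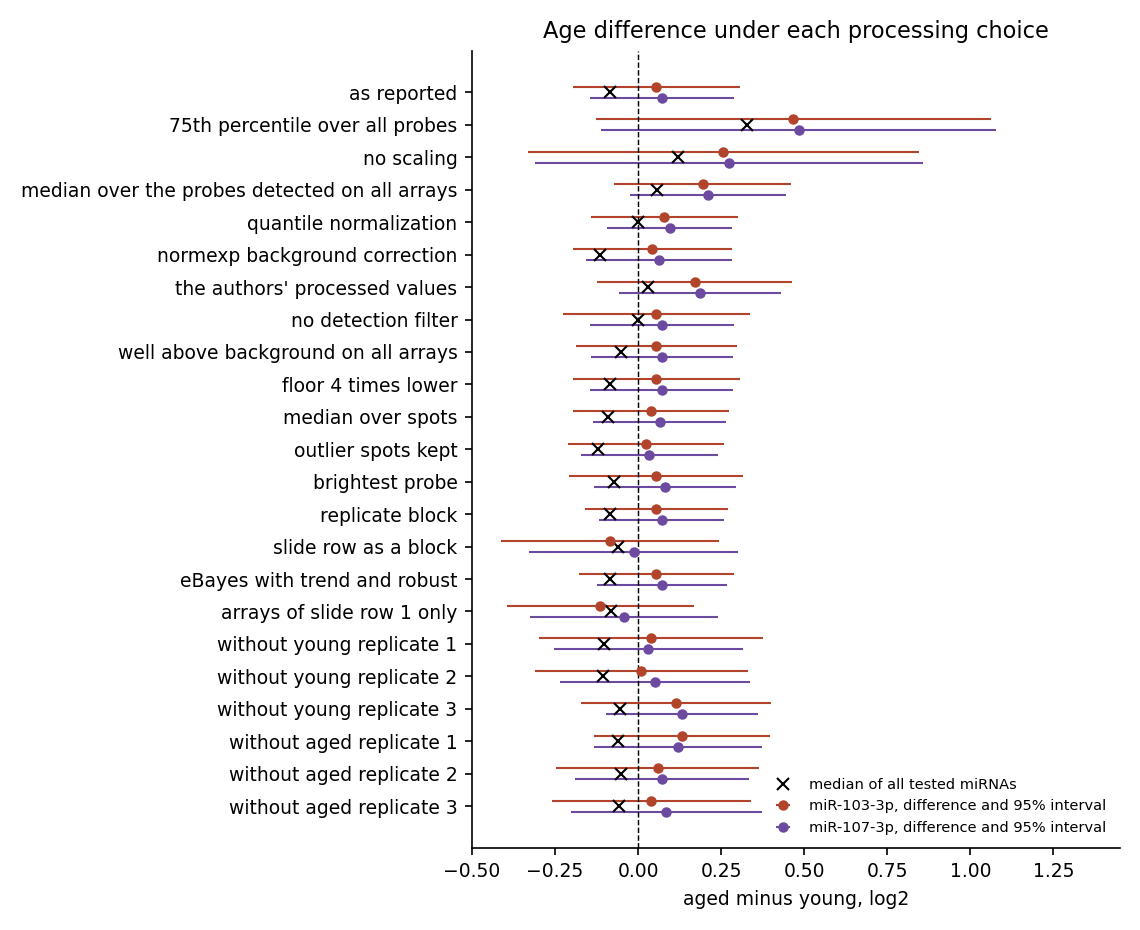
Age difference (aged minus young, log2) of miR-103-3p and miR-107-3p with limma's 95% interval under each processing choice, with the median of all tested miRNAs as a cross. The points run from -0.11 to 0.48, are below 0 in the 2 settings that take slide row into account, and every interval includes 0.

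The opposite arms of the hairpins were not detected. They are shown 5′ to 3′ with bases 2 to 8 in capitals, and miR-103-2-5p, which is not among the names of the array, is included for comparison.
miR-103-1-5p: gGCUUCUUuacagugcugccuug
miR-103-2-5p: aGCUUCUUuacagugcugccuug
miR-107-5p: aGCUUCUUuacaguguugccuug
From miR-103-2-5p the first differs by A1G and the last by C16U. Of 231 kept spots of miR-103-1-5p and 229 of miR-107-5p over the 6 arrays, 0 were well above background. The brightest single spot was 24.8 intensity units for miR-103-1-5p and 27.4 for miR-107-5p, and the 99th percentile of negative control spots was 19.1 to 27.8 on aged and 22.7 to 33.1 on young arrays. The mean was 0.0617 to 2.87 in aged and 0.915 to 7.05 in young kidney for miR-103-1-5p. For miR-107-5p it was -0.809 to 1.30 in aged and -1.10 to 0.694 in young kidney. Neither was detectable at these signals in aged or young kidney, and no difference is given.

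The miR-15 and miR-16 family is the nearest relative by seed, since its bases 2 to 7 equal bases 1 to 6 of miR-103-3p and miR-107-3p. The family is known to repress cell cycle genes. These 6 bases are in capitals below, and 11 of the 1679 RefSeq names (0.655%) have them at bases 2 to 7.
miR-15a-5p: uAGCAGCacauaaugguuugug
miR-15b-5p: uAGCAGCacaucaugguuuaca
miR-16-5p: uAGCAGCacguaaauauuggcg
miR-195a-5p: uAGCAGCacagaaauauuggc
miR-322-5p: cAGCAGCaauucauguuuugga
miR-497-5p: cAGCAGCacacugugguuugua
miR-503-5p: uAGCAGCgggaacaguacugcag
The longest run shared with miR-103-3p was 7 bases in the first 6 of them and 6 bases in miR-503-5p. All 7 were tested, and miR-195b, miR-6342, miR-6353 and miR-6419, which carry the same 6 bases, were not well above background on any array.

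Of these 7 relatives 0 rose and 1 fell, miR-503-5p, against 4.15% of all tested miRNAs higher and 3.63% lower, and the median of the 7 was -0.087 where that of all tested miRNAs was -0.083. miR-503-5p, encoded on the X chromosome beside miR-322, had scaled log2 signals of -4.97, -4.88 and -4.83 in aged kidney, against -4.47, -4.56 and -4.36 in young kidney. It was well above background on 1 aged array (array 2) and on 3 young arrays, so that it entered the test through the young group alone, where it was higher, and its call supports nothing about the family. The difference, taken with aged arrays 1 and 3 not well above background, was -0.43 ± 0.09 (limma adjusted p = 0.032). This call held in 1 of the 6 fits with 1 array left out (limma adjusted p up to 0.183) and in 3 of 14 other alternatives. miR-322-5p stood at -0.31 ± 0.09 and miR-15b-5p at -0.28 ± 0.08 (limma adjusted p = 0.0864 and 0.0814). miR-15a-5p stood at 0.068 ± 0.082, miR-16-5p at 0.039 ± 0.081, miR-195a-5p at -0.034 ± 0.072 and miR-497-5p at -0.087 ± 0.075 (limma adjusted p of 0.481 to 0.798). All aged arrays lay below all young arrays for 4 of the 7, miR-15b-5p, miR-322-5p, miR-497-5p and miR-503-5p, against 20.2% of all tested miRNAs, and above them for 0 of the 7, against 10.4%. The 4 include miR-503-5p, which was tested through the young group alone, so this count supports nothing about the family. With the 75th percentile over all probes miR-15b-5p, miR-195a-5p, miR-322-5p and miR-497-5p were above 0, at 0.13, 0.38, 0.10 and 0.33.

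Among other miRNAs known from insulin signalling and lipid metabolism, 17 of 23 on the array were tested, of which 4 rose and 0 fell, against 4.15% of all tested miRNAs higher and 3.63% lower. The list was chosen with earlier results of these data known, so its 4 calls do not show an excess. The median of the 17 was -0.039, against -0.083 for all tested miRNAs. The smallest p belonged to the miR-29 family, which represses collagens and is known to be raised in muscle of diabetic rats. Here miR-29b-3p rose by 0.68 ± 0.07, miR-29a-3p by 0.63 ± 0.07 and miR-29c-3p by 0.56 ± 0.08 (limma adjusted p = 0.00399, 0.00495 and 0.0134). The fourth, named after its value was seen, was the p53 target miR-34a-5p at 0.71 ± 0.12 (limma adjusted p = 0.0235). With 1 array left out, the calls of miR-29b-3p and miR-29a-3p held in 6 of 6 fits, that of miR-29c-3p in 3 and that of miR-34a-5p in 2. Of 16 other alternatives, the call held in 15 for miR-29b-3p, in 13 for miR-29a-3p, in 11 for miR-29c-3p and in 11 for miR-34a-5p. Those with the largest p were miR-128-3p at -0.039 ± 0.106, miR-27a-3p at -0.039 ± 0.076 and miR-21a-5p at 0.078 ± 0.086 (limma adjusted p of 0.586 to 0.84). miR-122-5p, miR-335-5p, miR-370-3p, miR-375-3p and miR-802-5p were not well above background on any array, and miR-320-3p was on 2 aged arrays and 0 young ones. Whether the pair differed from these miRNAs in its change was not tested.

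Across the 6 arrays miR-103-3p and miR-107-3p followed each other with a Pearson correlation of 0.916 and a Spearman correlation of 0.829, and of 0.99 (Pearson) before scaling. The arrays share the scaling and the slide, and the 2 sequences share 22 of 23 bases, so these values are descriptions. The miRNAs most like miR-103-3p over the 6 arrays were miR-532-5p (Pearson r = 0.993), miR-361-5p (0.984), miR-324-5p (0.983), miR-24-3p (0.961) and let-7d-5p (0.958). Those most like miR-107-3p were miR-324-5p (0.941), miR-532-5p (0.918), miR-192-5p (0.884), miR-3096b-3p (0.881) and miR-140-3p (0.881). miR-107-3p itself came after 13 other miRNAs in likeness to miR-103-3p, and miR-103-3p after 2 others in likeness to miR-107-3p. Several of these correlations were lower under other processing. With normexp background correction those with miR-103-3p were 0.348 for miR-532-5p and 0.458 for miR-324-5p, and those with miR-107-3p were 0.304 for miR-532-5p, 0.431 for miR-324-5p and 0.357 for miR-3096b-3p. Under quantile normalization the correlation of miR-24-3p with miR-103-3p was 0.202.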

How the data were processed

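Per the file headers, arrays of design 046065 on 1 slide were read on 1 day with Feature Extraction 11.5.1.1, and the deposited spot values are background-subtracted intensity, not scaled between arrays. Per the file headers, the deposited flags mark spots as outliers, saturated (0 here) or well above background. Per the labels' protocols, 100 ng of purified RNA was dephosphorylated and ligated to pCp-Cy3. The authors also deposited a processed log2 table, which matched log2 of the summed signal per miRNA in the scanner files less 1 constant per array (largest departure 1e-05 over the 1247 miRNAs). No source used here says how the constant was chosen. Column medians were -9.49, -10.10 and -9.20 in aged and -9.74, -9.21 and -9.21 in young kidney. They differed between arrays by the constants alone, so they do not compare miRNA levels.

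Intensities were averaged over the spots of a probe without outliers and scaled to a common 75th percentile, taken on each array over the 315 probes detected throughout. A probe counted as detected where over 50% of its kept spots were marked well above background. Values were summed over the probes of a miRNA, floored at -5.22 and put on the log2 scale. The percentile was 1171 to 2054 intensity units in aged and 1191 to 1415 in young kidney, and the number of arrays limits precision. A miRNA was tested if every array of either age detected it, which 193 did. The model (limma 3.58.1, R 4.3.3) held age and no covariate, and p-values were adjusted by Benjamini-Hochberg over all 193. Within a group, 58.4 to 81% of probes differed between arrays by more than spot noise, where 5% would by that noise alone. No pair of arrays was therefore taken for the same scan deposited again. The same preparation run on separate arrays could also differ by more than spot noise. This comparison therefore cannot tell whether the preparations are independent. The fit was tested on simulated data with independent noise for each miRNA and array, so effects shared across an array were not simulated. RefSeq tables gave sequences and names, and miR-497-5p was matched to miR-497a-5p as its older name. The files hold no mean spot signal, so normexp used the median signal (offset 50). The members and lists were chosen with earlier results of these data known. The miRNAs named were the 2 members, their opposite arms, the detected miRNAs of the shifted-seed list, the 3 smallest and 3 largest p of the metabolic list, and the 5 miRNAs most correlated with each member. The other miRNAs with values, miR-34a-5p, miR-124-3p and those of blood cells and kidney epithelium, were named after their values were seen.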

Additional observations from a re-analysis of the deposited data

How the results depend on the processing

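Neither miR-103-3p nor miR-107-3p passed the threshold under any of 22 alternatives each, with limma adjusted p of 0.302 to 0.998 and 0.221 to 0.965. Leaving out 1 array gave 0.0091 to 0.13 for miR-103-3p, 0.030 to 0.13 for miR-107-3p, -0.046 to 0.011 for their ratio and 5 to 39 for the number of miRNAs past the threshold, the last without aged array 1. With slide row as a block the differences turned to -0.084 and -0.014, and within the first row to -0.11 and -0.043; the cause was not tested. Same-numbered arrays deviated together with correlations of 0.12, -0.58 and 0.31, and differently numbered ones with -0.48 to 0.40. These deviations were taken within groups of 3 arrays and constrain each other, so they cannot settle whether replicate numbers pair the arrays. With the replicate block 3 miRNAs passed in place of 15, and the block changed no call of the pair but ended those of miR-503-5p, miR-34a-5p, miR-29a-3p and miR-29c-3p (limma adjusted p = 0.0789, 0.0789, 0.0533 and 0.0706). Slide row as a block ended the same 4 calls (0.105, 0.143, 0.0637 and 0.106). No scaling ended those and that of miR-29b-3p (0.123). The count was also 2 without scaling, 5 with normexp, 6 without a detection filter and 5 with slide row as a block. It split into 18 higher and 3 lower with the median over detected probes, 19 and 2 under quantile normalization, 10 and 0 in the authors' values, and 8 and 7 as reported.

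Signs turned for the following, with the cause not tested beyond the shift of all miRNAs. With the 75th percentile over all probes they were miR-15b-5p (0.13), miR-195a-5p (0.38), miR-322-5p (0.10), miR-497-5p (0.33), miR-27a-3p (0.37), miR-128-3p (0.37) and miR-451a (0.070). miR-195a-5p, miR-497-5p, miR-27a-3p and miR-128-3p were at 0.17, 0.12, 0.16 and 0.16 without scaling, at 0.11, 0.053, 0.10 and 0.10 with the median over detected probes, and at 0.082, 0.028, 0.076 and 0.076 in the authors' values. Under quantile normalization miR-21a-5p was at -0.078 and miR-128-3p at 0.12. With slide row as a block miR-16-5p was at -0.048 and miR-27a-3p at 0.023, and within the first row miR-15a-5p was at -0.014, miR-16-5p at -0.077 and miR-21a-5p at -0.011. With 1 array left out miR-16-5p ranged from -0.0041 to 0.090, miR-195a-5p from -0.062 to 0.014, miR-27a-3p from -0.067 to 0.063 and miR-128-3p from -0.090 to 0.039. All kept spots of the pair were well above background.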
